A study of Mus musculus with 2 samples.

Results

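The NF-κB subunits and the IκB proteins that bind them were followed in 2 mRNA sequencing libraries of mouse CD4 T cells cultured toward Th17 cells, helper T cells that make IL-17. The 10 genes, taken by symbol from the deposited table of 22036 named genes, were the 5 Rel-family subunit genes Rel, Rela, Relb, Nfkb1 and Nfkb2 and the 5 IκB genes Nfkbia, Nfkbie, Nfkbiz, Nfkbid and Bcl3. All 10 were found and all passed a minimum mean of 1 CPM, the count scaled to the size of the library. The T cells, from wild-type mice whose strain, age and number the labels do not give, came from spleen and lymph nodes and grew for 24 h on anti-CD3 (10 μg/mL) and anti-CD28 (5 μg/mL). The culture labelled pathogenic Th17 (pTh17) received activin A, a ligand of the TGF-β family, at 20 ng/mL with IL-6 at 20 ng/mL. The culture labelled non-pathogenic Th17 (npTh17) received the same IL-6 with recombinant human TGFβ1 at 2 ng/mL. Both contained antibodies that block IFNγ and IL-4.

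NF-κB factors are dimers of Rel-family proteins. RelA, c-Rel (from Rel) and RelB carry a transactivation domain, while p50 and p52 are cut from the precursors p105 (Nfkb1) and p100 (Nfkb2), whose ankyrin repeats also let them act as inhibitors. Cytoplasmic IκB proteins hold the dimers back until the IKK kinase marks the inhibitor for destruction, which in T cells follows T cell receptor and CD28 signals. The atypical, nuclear IκB proteins instead bind dimers on DNA and can raise or lower transcription. In T cells, c-Rel is known for its part in Il2 and Foxp3 expression, and IκBζ (Nfkbiz) and Bcl-3 for roles in Th17 cells.

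Each condition gave 1 library, called pTh17 and npTh17 below, so no test between conditions was possible and no difference below has a replicate check. Ranges in brackets are 95% counting intervals. Counts on named genes summed to 30877656 in pTh17 and 33470161 in npTh17. Markers of CD4 T cells were abundant, with a summed level of 1887 CPM in pTh17 and 1923 CPM in npTh17 over 6 genes. Single markers differed, with intervals of the ratio above 1 for 2, below 1 for 3 and across 1 for 1. Cd3e was 1.51-fold and Cd3g 1.37-fold higher in npTh17, while Cd3d was 1.21-fold higher in pTh17. The 5 B cell markers summed to 0.808 and 0.180 CPM and the 4 dendritic cell markers to 0.129 and 0.838 CPM, with Pax5 and Flt3 among those at 0 counts in both libraries. Of the others, Cd79a had 11 counts in pTh17 and 6 in npTh17, Cd79b 11 and 0, and Itgax 0 and 20. The 6 myeloid markers summed to 3.78 and 4.58 CPM, with Csf1r, Adgre1 and Cd14 at 0 counts in both. Cd68, with 110 and 123 counts, made up most of that sum, and Itgam had 0 and 24. The 4 NK markers summed to 0.356 and 0.0598 CPM, with Ncr1 and Klrb1c at 0 and Klre1 at 9 and 2 counts. The 4 erythroid markers summed to 1.97 and 2.81 CPM. The CD8 genes Cd8a and Cd8b1 summed to 1.91 and 1.89 CPM. These are bulk cultures, in which fewer cells of a type and less RNA per cell cannot be told apart.

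Many genes of this family are themselves NF-κB targets, so the letters of their promoters are shown first. RefSeq promoter windows (GRCm38.p6, 250 bases before to 50 after a start site) were found for 7 of the 10 members. They were searched on both strands for the NF-κB motif, the degenerate κB consensus of 10 letters. Of those 7 members, 6 had at least 1 match, namely Rel, Nfkb2, Nfkbia, Nfkbie, Nfkbid and Bcl3, while Rela had none. Over all genes with a window, 9.55% of 27025 had a match. By windows, 8 of 11 of the members' windows had one, against 8.46% of 32851, and base composition was not taken into account. A narrower form, 3 G, any 2 bases and then TTTCC, was present in 3 of the 7 members (Rel, Nfkb2 and Nfkbia) and in 1.89% of genes. No window was found for Nfkb1, Relb and Nfkbiz. A match describes letters only and does not show binding.

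Nfkbia, the member with the largest ratio of those given below, is shown with the 250 bases that precede its start site (chr12:55492648-55492897, − strand), 5′ to 3′. Capitals mark the κB match, which begins 29 bases before the start site.

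Nfkbia: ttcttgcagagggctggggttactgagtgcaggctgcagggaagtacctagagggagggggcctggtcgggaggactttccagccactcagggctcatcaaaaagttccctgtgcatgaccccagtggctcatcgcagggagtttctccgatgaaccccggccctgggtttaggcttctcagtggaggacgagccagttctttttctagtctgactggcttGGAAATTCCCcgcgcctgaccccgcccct

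The other matches fell in 9 stretches, each shown within 30 bases and read 5′ to 3′ on the strand of the gene, with the matching bases in capitals. Where matches overlapped they were merged into 1 stretch of 11 bases, as in Rel and the first of Nfkb2. By GENCODE M21, those of Rel and Nfkbie lie upstream of the gene. Both of Nfkbid lie in an intron of its longest gene model, before an inner start site. Of the 4 in Nfkb2, the third lies in an intron and the others overlap an exon of at least 1 transcript, as does that of Bcl3.

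Rel, chr11:23771042-23771071, - strand: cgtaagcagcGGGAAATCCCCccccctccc
Nfkb2, chr19:46304689-46304718, + strand: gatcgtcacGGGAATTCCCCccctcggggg
Nfkb2, chr19:46304716-46304745, + strand: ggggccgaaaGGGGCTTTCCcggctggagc
Nfkb2, chr19:46305449-46305478, + strand: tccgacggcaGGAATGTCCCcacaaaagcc
Nfkb2, chr19:46305695-46305724, + strand: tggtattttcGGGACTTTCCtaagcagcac
Nfkbie, chr17:45555584-45555613, + strand: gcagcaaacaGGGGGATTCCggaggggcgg
Nfkbid, chr7:30422170-30422199, + strand: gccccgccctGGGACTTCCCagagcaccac
Nfkbid, chr7:30422215-30422244, + strand: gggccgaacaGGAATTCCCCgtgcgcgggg
Bcl3, chr7:19822734-19822763, - strand: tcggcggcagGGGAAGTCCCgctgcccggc

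The IκB genes and part of the subunit genes were higher in pTh17. No member reached 2-fold in either direction, where 2.25% of the 10597 measured genes passed 2-fold in favour of pTh17 and 1.95% in favour of npTh17. At 1.5-fold, 6 of the 10 members (Nfkbia, Nfkbie, Nfkbid, Nfkb2, Rel and Nfkbiz) were higher in pTh17, against 7.20% of measured genes, and no member was higher in npTh17, against 5.76%. The ratio was above 1 for 9 of 10 members, against 49.4% of genes. The counting interval lay above 1 for 9 members, against 33.0% of genes, and below 1 for none, against 34.0%. A limit of 20 CPM on the mean, set after the values were seen, left 7059 genes and 9 members, without Nfkbie. Of these, 3.44% of genes and 5 members were 1.5-fold or more higher in pTh17. The median log2 ratio of pTh17 over npTh17 was 0.62 over the members, 0.78 over the 5 IκB genes and 0.17 over the 5 subunit genes, while that of all measured genes was −0.0045.

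**Figure D1:**
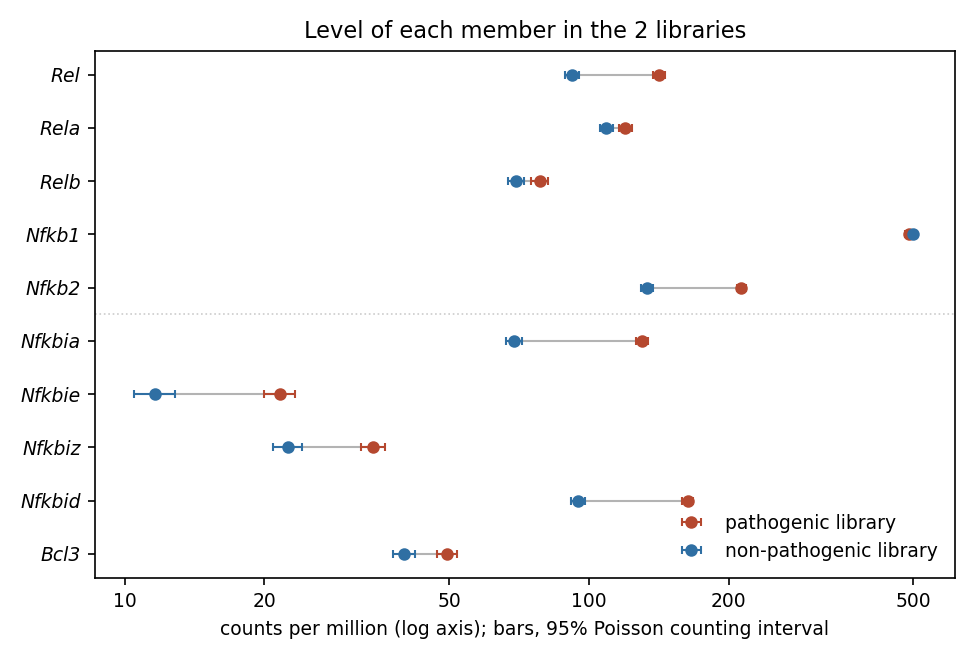
Level of each of the 10 genes in CPM (x, log axis) in pTh17 (red) and npTh17 (blue), with 95% Poisson counting intervals. The points of Nfkb1 lie together, at 488 and 498, and those of Nfkbia lie far apart, at 130 and 69.0.

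Among the subunits with a transactivation domain, Rel stood apart. Rel (ENSMUSG00000020275, chromosome 11, 23736847 to 23770970), which encodes c-Rel, had 4380 counts, or 142 CPM, in pTh17 and 3072 counts, or 91.9 CPM, in npTh17. It was 1.54-fold higher in pTh17 (1.47 to 1.61), a ratio that 6.34% of measured genes exceeded. Rela (ENSMUSG00000024927, chromosome 19, 5637483 to 5648130), the gene of p65, had 3700 and 3640 counts, or 120 and 109 CPM, and a 1.10-fold ratio (1.05 to 1.15). Relb (ENSMUSG00000002983, chromosome 7, 19606217 to 19629438), whose product pairs mainly with p52 in the non-canonical arm, had 2421 and 2326 counts, or 78.3 and 69.6 CPM, at 1.12-fold (1.06 to 1.19). The interval of Rel lay wholly above those of Rela and Relb, and the latter overlapped each other. Rela was the smallest of the ratios above 1, and its log2 ratio of 0.14 became 0.043 when a trend on transcript length and GC content was removed.

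The precursor genes differed from each other. Nfkb1 (ENSMUSG00000028163, chromosome 3, 135584655 to 135691547), the gene of p105 and p50, was the most abundant member, with 15101 counts, or 488 CPM, in pTh17 and 16652 counts, or 498 CPM, in npTh17. Its log2 ratio of −0.029 (−0.061 to 0.0028) was within counting error. Nfkb2 (ENSMUSG00000025225, chromosome 19, 46304320 to 46312385), the gene of p100 and p52, had 6592 and 4465 counts, or 213 and 134 CPM. It was 1.60-fold higher in pTh17 (1.54 to 1.66). Nfkb2 thus differed by more than counting error, and Nfkb1, with more counts in each library, did not. Psd and AC114539.1, the latter not analysed here, lie on the opposite strand over exons of Nfkb2, and the labels describe no strand-marking step, so their reads cannot be told apart. Psd had 317 and 211 counts, 4.81% and 4.73% of those of Nfkb2, and summing the pair left the log2 ratio at 0.68 beside 0.67 for Nfkb2 alone.

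Both cytoplasmic inhibitor genes among the members were close to 2-fold higher in pTh17. Nfkbia (ENSMUSG00000021025, chromosome 12, 55489410 to 55492647), the gene of IκBα, the inhibitor that NF-κB itself re-induces, had 4028 counts, or 130 CPM, in pTh17 and 2307 counts, or 69.0 CPM, in npTh17. Its 1.89-fold ratio (1.79 to 1.99) was exceeded by 2.95% of measured genes. Nfkbie (ENSMUSG00000023947, chromosome 17, 45555703 to 45563169), the gene of IκBε, was the least abundant member, with 667 and 388 counts, or 21.6 and 11.6 CPM, and was 1.86-fold higher (1.64 to 2.11). These were the highest ratios of the 10 genes, and their intervals overlapped. With the length and GC trend removed, their order turned, at a log2 ratio of 0.78 for Nfkbia and 0.84 for Nfkbie. If each sequenced fragment had added 2 to a count, the log2 interval of Nfkbia, 0.84 to 0.99 as counted, would be 0.81 to 1.02, and that of Nfkbie, 0.71 to 1.08 as counted, would be 0.63 to 1.16.

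The nuclear IκB genes were spread more widely. Nfkbid (ENSMUSG00000036931, chromosome 7, 30421732 to 30428746), the gene of IκBNS, had 5048 counts, or 163 CPM, in pTh17 and 3173 counts, or 94.9 CPM, in npTh17, at 1.72-fold (1.64 to 1.80). Nfkbiz (ENSMUSG00000035356, chromosome 16, 55811375 to 55838899), the gene of IκBζ, had 1061 and 751 counts, or 34.3 and 22.5 CPM, at 1.53-fold (1.39 to 1.68). Bcl3 (ENSMUSG00000053175, chromosome 7, 19808462 to 19822770), whose product binds p50 and p52 homodimers, had 1529 and 1336 counts, or 49.4 and 40.0 CPM, at 1.24-fold (1.15 to 1.33). All 3 were higher in pTh17, and the interval of Bcl3 lay below those of the other two. With counts divided by 2, as for Nfkbia above, the log2 interval of Bcl3, 0.16 to 0.46, overlapped that of Nfkbiz, 0.42 to 0.81, and stayed below that of Nfkbid, 0.69 to 0.87. The antisense gene Gm16175, not analysed here, overlaps an exon of Bcl3, and its reads could not be told from those of Bcl3. Removing the length and GC trend brought the log2 ratio of Bcl3 from 0.31 to 0.097 and that of Nfkbid from 0.78 to 0.65.

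**Figure D2:**
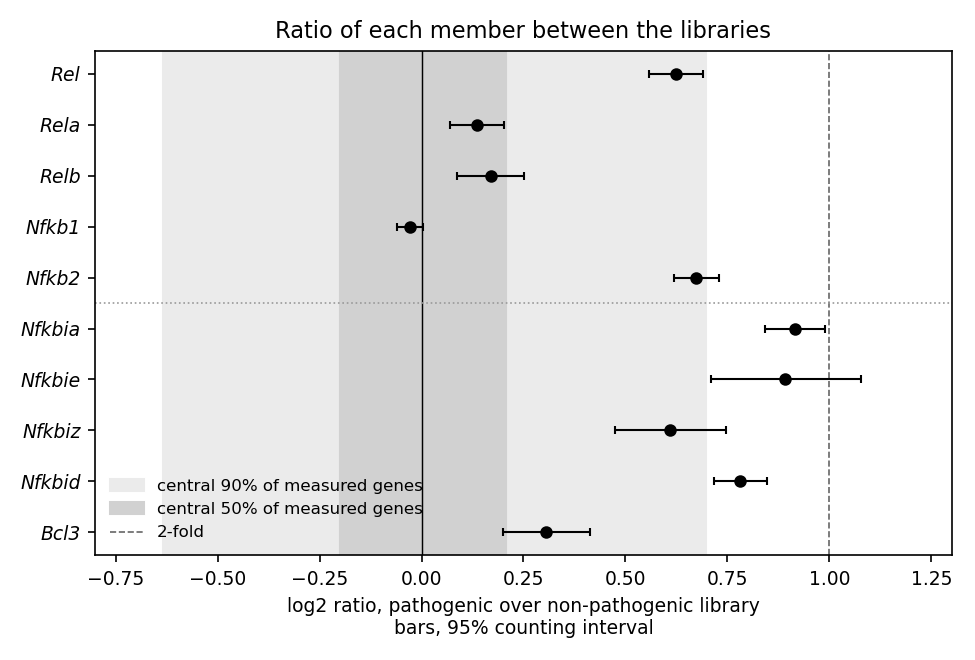
Log2 ratio of pTh17 over npTh17 for each member (points) with its 95% counting interval (bars), over the bands that hold the central 50% and 90% of all measured genes. Nfkbia, Nfkbie and Nfkbid lie to the right of the 90% band, which ends at 0.70, and Nfkb1 lies at −0.029.

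**Figure D3:**
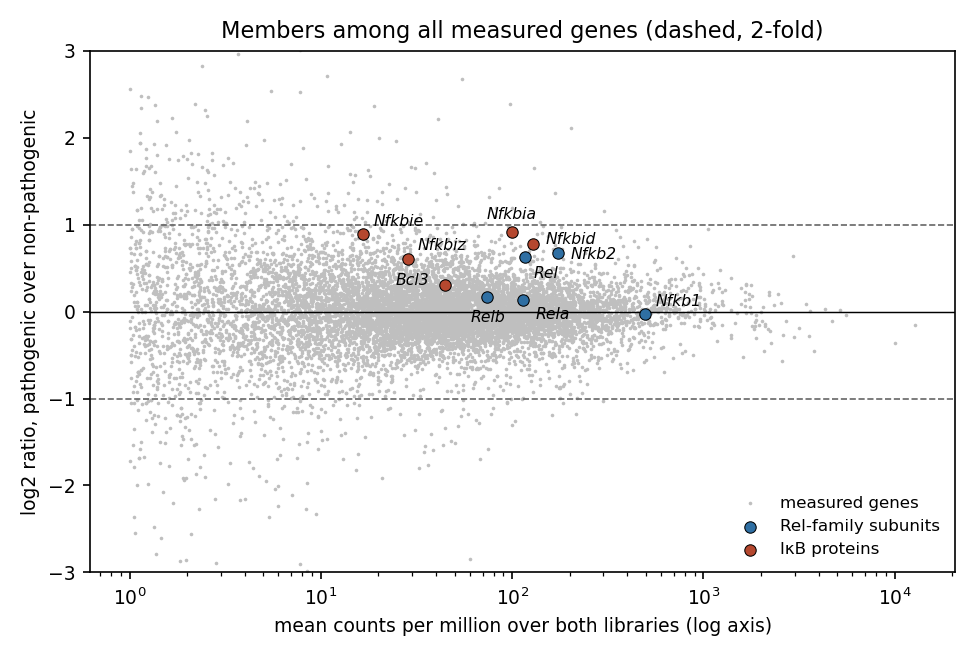
Log2 ratio of pTh17 over npTh17 (y) against the mean level in CPM (x, log axis) for all measured genes (grey; 18 lie outside the plotted range), the subunits (blue) and the IκB genes (red). The spread of the grey points is wider at low levels, no member lies beyond a dashed 2-fold line, and Nfkbia is the highest member, at 0.92.

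Per unit of transcript length, as the FPKM that the authors deposited, the order of the subunit levels was the same in both libraries. Nfkb1 stood at 105 FPKM in pTh17 and 108 FPKM in npTh17, followed by Nfkb2 at 61.0 and 38.3, Rela at 38.6 and 35.3, Relb at 31.3 and 28.0, and Rel at 16.6 and 10.8. With counts per kilobase of the longest transcript in place of FPKM, that order held in pTh17 and not in npTh17, where Rela took 17.5% of the subunit sum and Nfkb2 15.2%, against 16.9% and 21.3% in pTh17. The subunits summed to 253 and 221 FPKM. The share of Nfkb1 in that sum was 41.6% in pTh17 and 49.0% in npTh17, while that of Nfkb2 was 24.2% and 17.4%. Thus the level of Nfkb1 was 1.72 times that of Nfkb2 in pTh17 and 2.82 times in npTh17. Among the 3 genes of transactivating subunits, Rel took 19.2% of FPKM in pTh17 and 14.6% in npTh17, and the FPKM of Rela was 2.32 and 3.26 times that of Rel.

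Among the 5 IκB members by FPKM, Nfkbia and Nfkbid led in both libraries, at 72.3 and 70.9 FPKM in pTh17 and 38.5 and 41.4 FPKM in npTh17. Bcl3 followed at 23.8 and 19.2 FPKM, Nfkbiz at 8.28 and 5.41, and Nfkbie at 7.75 and 4.20. Nfkbia was ahead of Nfkbid in pTh17 and behind it in npTh17, and with 1 library each their order has no replicate error to be judged by. The 5 genes summed to 183 and 109 FPKM, a 1.68-fold ratio, where the subunits summed to a 1.14-fold ratio. Transcripts of the 5 IκB members stood at 0.725 per subunit transcript by FPKM in pTh17 and 0.493 in npTh17. Their sum includes the nuclear IκB genes. It leaves out Nfkbib (IκBβ), which is not a member and stood at 44.3 and 35.1 FPKM, above Bcl3. For Nfkbia over Rela, the classical inhibitor and subunit pair, the values were 1.87 and 1.09, and for Nfkb2 over Relb, the precursor and its partner, they were 1.95 and 1.37. These are transcript levels and say nothing of protein, whose turnover is what the pathway controls.

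**Figure D4:**
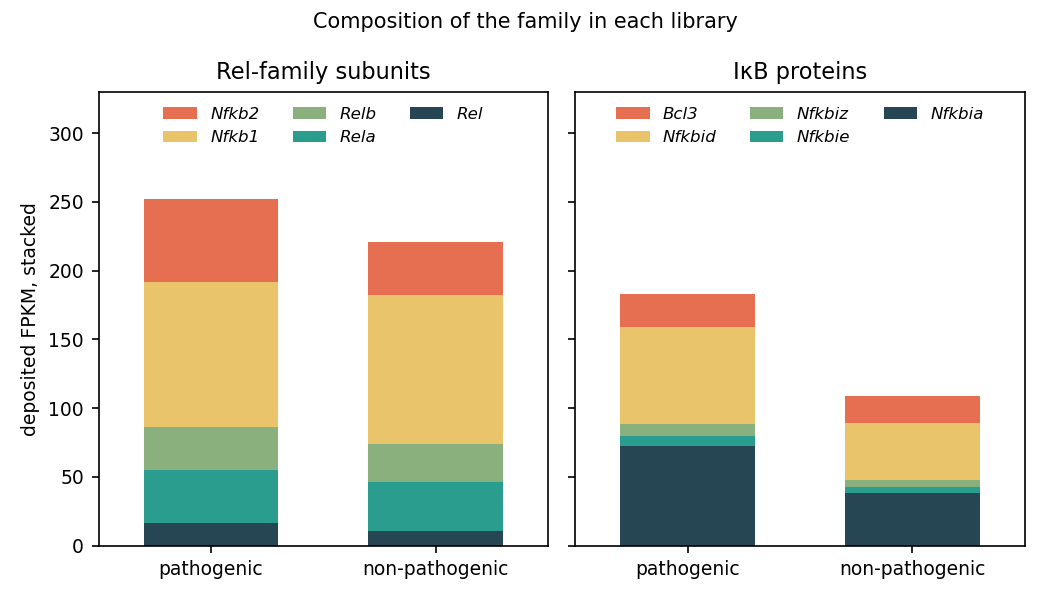
Deposited FPKM of the 5 subunit genes (left) and the 5 IκB genes (right), stacked, in each library. The subunit stacks reach 253 and 221 FPKM in pTh17 and npTh17, and the IκB stacks reach 183 and 109 FPKM.

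The other genes of the pathway were read from lists. Over all 10597 measured genes, 5240 were above 1 and 5357 below, with the median log2 ratio of −0.0045 given above. Of the further genes listed beside the IκB members, Nfkbib is the gene of IκBβ. It had 63.4 CPM in pTh17 and 51.8 CPM in npTh17, at 1.22-fold (1.15 to 1.31). Nfkbil1, a distant relative, had 17.4 and 11.1 CPM, at 1.56-fold (1.37 to 1.79), or a log2 ratio of 0.34 in place of 0.64 with the trend removed. The ankyrin repeat gene Ankrd42 had 0 counts in pTh17 and 17 in npTh17, at least 5.24-fold higher in npTh17 against a floor of 3 counts in pTh17. Its counting interval starts lower, at 3.82-fold. The 2 measured genes were thus above 1, like the 5 IκB members. Ankrd42, in the same list, was under 1 CPM in both libraries and is not taken here as a member of the IκB family. The median log2 ratio of the list was 0.47 over the 2 measured genes and 0.29 with Ankrd42 kept. With the length and GC trend removed, the median of the 2 measured genes was 0.24.

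Genes that carry the T cell receptor signal to IKK were mostly lower in pTh17. Of 6 measured, 5 were below 1 and none passed 2-fold, with a median log2 ratio of −0.29. Prkcq, the gene of PKCθ, a kinase that acts early in this signal, was 1.43-fold higher in npTh17 (1.38 to 1.49), and Malt1, a paracaspase gene at 1248 CPM in pTh17 and 1538 CPM in npTh17, 1.23-fold (1.22 to 1.25). Bcl10 was the 1 gene above 1, at 1.28-fold higher in pTh17 (1.20 to 1.38).

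The IKK complex with its upstream kinases and the linear ubiquitin ligase had a median of −0.12 over 11 genes, of which 9 were below 1 and none passed 2-fold. Map3k7, which encodes the kinase TAK1 that activates IKK, was 1.48-fold higher in npTh17 (1.42 to 1.54), at 210 CPM against 142. Sharpin, of the linear ubiquitin ligase, was 1.23-fold higher there (1.14 to 1.33), Ripk1, a kinase and scaffold gene of TNF signalling, 1.19-fold (1.14 to 1.25), and Chuk, the gene of IKKα, 1.12-fold (1.06 to 1.17). Intervals lay below 1 for 5 of the 11 genes, against 34.0% of all measured genes, above 1 for 2, against 33.0%, and across 1 for 4.

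In the list for the non-canonical arm, which turns p100 into p52, 4 of 5 measured genes were below 1, with a median of −0.10. Genes were pooled without regard to whether they drive or restrain this step, so the median gives no direction for the arm. Birc2, a ubiquitin ligase gene, was 1.27-fold higher in npTh17 (1.17 to 1.38), and Map3k14, the gene of the NF-κB-inducing kinase, was 1.20-fold higher there (1.13 to 1.28). Birc3, the close relative of Birc2, was 1.10-fold higher in pTh17 (1.06 to 1.15), and Traf2, an adaptor gene, had a log2 ratio of −0.10 (−0.21 to 0.014), within counting error. The receptor gene Ltbr had no count in either library. Nfkb2, at a log2 ratio of 0.67, lay outside the range of these genes, −0.35 to 0.14.

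Skp1 was listed for the ubiquitin ligase that acts on phosphorylated IκB but was not found by symbol in the deposited table. The ligase had a median of −0.096 over 4 measured genes, or 0.00040 by FPKM, with 3 of the 4 below 1 by CPM. Cul1, its scaffold, was 1.12-fold higher in npTh17 (1.08 to 1.16) and Rbx1, its RING subunit, 1.16-fold higher in pTh17 (1.09 to 1.23). Fbxw11, 1 of its substrate receptors, had a log2 ratio of −0.072 (−0.13 to −0.013), and the other, Btrc, was within counting error at −0.12 (−0.27 to 0.033), or 0.10 by FPKM.

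Receptors and adaptors had a median of −0.10 over 11 genes, 7 of them below 1. Intervals lay below 1 for 5 of the 11 genes, against 34.0% of all measured genes. They lay above 1 for 1 gene, against 33.0%, and across 1 for 5. Tnfrsf1b, the gene of TNF receptor 2, was 1.76-fold higher in npTh17 (1.67 to 1.86), at 118 CPM against 67.0. Cd27 was 1.20-fold higher there (1.12 to 1.29), as was Irak4, a kinase gene of IL-1 signalling, at 1.17-fold (1.05 to 1.31). Il18r1, with 48 and 70 counts, was within counting error.

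Negative regulators went both ways, with 5 of 10 above 1 and a median of −0.026. Tnfaip3, the gene of the ubiquitin-editing enzyme A20, a feedback target of NF-κB like Nfkbia, had 61.7 CPM in pTh17 and 37.6 CPM in npTh17, at 1.64-fold (1.53 to 1.76). Otud7b, a deubiquitinase gene, was 1.41-fold higher in pTh17 (1.34 to 1.49). N4bp1 was 1.66-fold higher in npTh17 (1.58 to 1.74), and Tax1bp1, an adaptor gene that works with A20, was 1.53-fold higher there (1.47 to 1.59).

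Genes reported as NF-κB targets were mostly higher in pTh17. Of 29 measured, 24 were above 1, against 49.4% of all measured genes. At least 2-fold higher there were 5, against 2.25% of all measured genes, and none was 2-fold higher in npTh17, against 1.95%. Listed genes under the minimum mean were left out of these counts. Among them, Csf2 had 9 and 21 counts and was 2.05-fold higher in npTh17, with an interval across 1 (0.95 to 5.35). Vcam1 had 2 and 0 counts, and Il6 had none. The median log2 ratio of the 29 measured genes was 0.50, or 0.38 with the length and GC trend removed. At a mean of at least 5 CPM the median of the list was 0.37. The 5 were the T cell growth factor gene Il2 at 5.16-fold (4.46 to 6.05), the chemokine gene Ccl3 at 3.22-fold (2.34 to 4.62), the costimulatory receptor gene Tnfrsf9 at 2.95-fold (2.59 to 3.38), Cd83, an activation marker with 58 and 23 counts, at 2.65-fold (1.66 to 4.63), and Ier3. Ier3, an early response gene, was named after its value was seen and had 74 and 36 counts, at 2.19-fold (1.47 to 3.41). Cd83, at 1.88 CPM in pTh17 and 0.688 CPM in npTh17, passed the minimum mean only through its pTh17 level. At a mean of at least 5 CPM, only Il2 and Tnfrsf9 of the 5 remained. There, 96 of all 9265 genes were at least 2-fold higher in pTh17. Birc3, Tnfaip3 and Tnip1 stand in this list and in another, and most of these genes also answer to other factors.

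**Figure D5:**
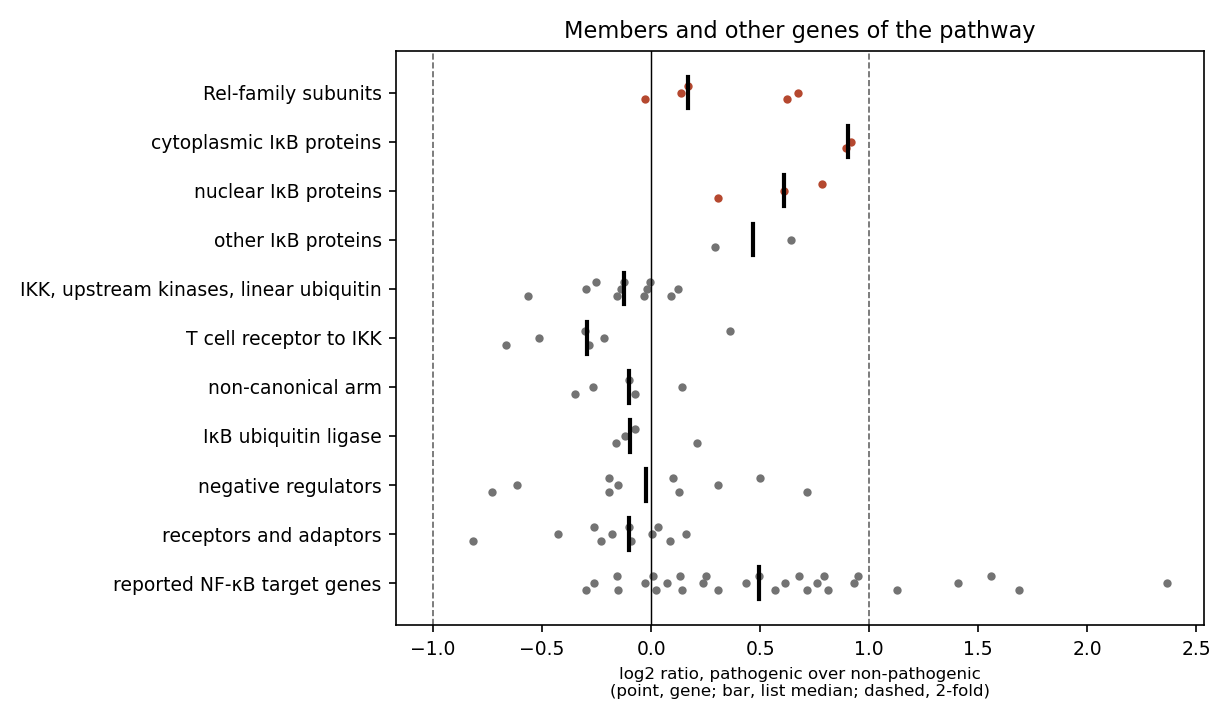
Log2 ratio of pTh17 over npTh17 for each measured gene of the pathway lists (points; members in red), with list medians (black bars). The IκB lists and the target list have medians above 0.4, the subunit list has a median of 0.17, and the remaining lists have medians between −0.29 and −0.026.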

How the data were processed

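The authors deposited whole-number counts per gene and FPKM values (fragments relative to transcript length and depth) for the same rows, per the file headers. The build named in the submitters' processing notes is mm10. No source used here names the aligner, the counting program or the annotation. Library preparation used oligo(dT) capture, random priming and PCR, per the labels' protocols. Of 23702 rows, 10 blank, 10 text and 1646 numbered features without a gene name (2.50% and 2.90% of counts) were left out.

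Library sizes were scaled with TMM factors (edgeR 4.0.16, R 4.3.3). The ratio was the log2 of CPM, pTh17 over npTh17, with a prior count of 1, and its interval the exact Clopper-Pearson 95% interval of the share of counts in pTh17. Genes whose mean reached 1 CPM count as measured. Intervals and the floor of 3 counts cover counting error only. Counts of 2 were 3.88 and 4.57 times as frequent as counts of 1, so a fragment can have added more than 1 and intervals can be too narrow. Calculations were tested on simulated data. Positions are from GENCODE M21 (GRCm38, the assembly of mm10), counted from base 1, and promoter sequences are from RefSeq on GRCm38.p6.

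All members are named, and from each other list up to 4 genes with the largest ratios. Genes of the pathway lists under the minimum mean are named as well. Some listed genes are counted in their lists but not reported by name here. The members and lists were chosen with earlier results of these data known. Alternatives were other scaling (DESeq2 1.42.0 size factors or none), FPKM with a pseudocount of 0.1, prior counts, filters, and removal of a quadratic trend on transcript length and GC content (longest GENCODE transcript). The planned comparison of protein sequences was not run.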

Additional observations from a re-analysis of the deposited data

How the results depend on the processing

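With 1 library per condition no replicate could be left out. No paired analysis was possible because each condition has 1 library. Under library totals, DESeq2 size factors, FPKM, a prior count of 5 and numbered features kept in library sizes, the log2 ratio of every member stayed within its counting interval. With the length and GC trend removed it left that interval for 5 members, at 0.043 for Rela, 0.018 for Nfkb1, 0.78 for Nfkbia, 0.65 for Nfkbid and 0.097 for Bcl3, and the median of the 5 IκB genes was 0.65. The sign of Nfkb1, within counting error, turned there. The 6 members past 1.5-fold stood past it under each of these settings, and none passed 2-fold (6 with the lower limit of 1.5-fold in place of 2-fold, higher in pTh17). The narrower form of the κB motif left 3 members with a match in place of 6. The count of all genes at least 2-fold higher in pTh17 and npTh17 was 238 and 207 at a minimum mean of 1 CPM, 96 and 101 at 5 CPM, 38 and 42 at 20 CPM, and 1192 and 1136 with no filter. Of the list medians under the alternatives, 43 stayed within the median bounds of their genes' intervals and 5 left them. The median of the IκB ubiquitin ligase list, −0.096, changed sign to 0.00040 with FPKM, within those bounds, and no other list median changed sign. Composition shares from counts per kilobase of the longest transcript stayed within 1.5 times those from FPKM in all 20 comparisons, but put Rela above Nfkb2 in npTh17. Depth limits Nfkbie and Nfkbiz most among the members, and low genes such as Cd83, Ier3 and Il18r1 more.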
